A study of Mus musculus with 9 samples.

Results

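The genes described here are 6 members of the leukocyte adhesion cascade, taken by symbol from the gene lists of the count matrices: Sele, Selp, Icam1, Icam2, Vcam1 and Selplg, which are 6 of 32285 listed genes. Nuclei from powdered heart tissue of wild-type (WT) male mice aged 9 to 10 weeks were sequenced in 9 libraries; the labels number them as replicates without saying that each came from a separate mouse, so the p-values measure only the spread between these samples, which may be technical. In NS-I/R (3 libraries), mice given normal saline (NS) had the left anterior descending (LAD) artery closed for 45 min and reperfused for 24 h. In Enpa-I/R (3 libraries), the same injury was combined with Enpatoran, an antagonist of Toll-like receptor 7, at 5 mg/kg intraperitoneally in 2 doses, the first 1 h before occlusion; its second dose is placed differently by the protocol and the design text. NS-Sham (3 libraries) had a thoracotomy alone after saline, and no Enpatoran-treated sham group is among the samples.

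Selectins and immunoglobulin-type receptors act in sequence when leukocytes leave the blood. Sele (E-selectin) and Selp (P-selectin, which endothelial cells and platelets also store in granules) slow the leukocyte to a rolling contact, and Selplg (PSGL-1) is a mucin-type selectin ligand on the leukocyte. Icam1, Icam2 and Vcam1 then bind leukocyte integrins and hold the cell firmly. Icam2 is known as a constitutive receptor of resting endothelium, and Sele, Icam1 and Vcam1 as cytokine-inducible ones.

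In the GRCm38 annotation Sele spans chr1:164048234-164057677 and Selp chr1:164115264-164150026, both on the plus strand of the same chromosome. Icam1 spans chr9:21015985-21028817 on the plus strand. Icam2 spans chr11:106377656-106388075, Vcam1 chr3:116109949-116129688 and Selplg chr5:113818536-113832644, all on the minus strand. Antisense or noncoding genes lie over Selp (Gm16587 and Gm16548), Icam1 (Gm47079) and Vcam1 (Gm43109). The promoters of Sele, Selp and Icam1 are printed because only these members had an entry in the RefSeq promoter table. They are also the adhesion receptors whose endothelial level differed between NS-I/R and NS-Sham below. Each is the 250 bases before the RefSeq start (GRCm38.p6), 5′ to 3′, with the matched motifs in capitals.
Sele promoter, chr1:164047984-164048233, plus strand: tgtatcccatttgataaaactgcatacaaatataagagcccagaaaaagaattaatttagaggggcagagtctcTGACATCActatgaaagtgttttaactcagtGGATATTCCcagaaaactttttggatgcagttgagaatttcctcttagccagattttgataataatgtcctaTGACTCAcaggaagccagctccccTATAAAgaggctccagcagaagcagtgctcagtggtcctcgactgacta
Selp promoter, chr1:164115014-164115263, plus strand: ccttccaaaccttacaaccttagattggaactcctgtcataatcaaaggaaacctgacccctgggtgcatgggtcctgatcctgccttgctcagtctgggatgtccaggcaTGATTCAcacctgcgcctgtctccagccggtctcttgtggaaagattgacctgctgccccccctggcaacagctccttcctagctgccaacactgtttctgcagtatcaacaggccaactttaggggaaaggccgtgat
Icam1 promoter, chr9:21015690-21015939, plus strand: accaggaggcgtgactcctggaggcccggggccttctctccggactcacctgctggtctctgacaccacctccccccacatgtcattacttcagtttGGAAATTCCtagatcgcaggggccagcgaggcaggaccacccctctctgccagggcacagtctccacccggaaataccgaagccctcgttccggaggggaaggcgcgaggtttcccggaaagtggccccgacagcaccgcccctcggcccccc

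The motifs were chosen after the sequences had been seen, and were searched on both strands. The Sele window held a kappaB-type motif (GGANNTTCC) at position -145 from the start, an ATF/CRE-type motif (TGACNTCA) at -176, an AP-1 motif (TGANTCA) at -73 and a TATA box (TATAAA) at -49. Of 32851 RefSeq promoter windows of the same length, 3.59% held the kappaB-type letters, 7.49% the ATF/CRE-type letters, 6.75% the AP-1 letters and 12.4% the TATA box letters. The Icam1 window held a kappaB-type motif at -153 and the Selp window an AP-1 motif at -139, each as the only match among these motifs. The ETS-type letters AGGAAGT, present in 7.69% of windows, matched none of the 3 promoters. Icam2, Vcam1 and Selplg had no entry in the promoter table, so their windows could not be set beside these. A match is a description of letters and not of a bound site.

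The 9 libraries held 19.7 M to 39.0 M UMIs (unique molecular identifiers, 1 per captured RNA molecule) over 4079 to 8198 barcodes, and 41979 of 56766 barcodes were kept as nuclei. Nuclei were clustered without the 6 genes and each cluster was called X-like from its marker genes. The endothelial-like class (4462 NS-Sham, 3992 NS-I/R and 4285 Enpa-I/R nuclei) joined 6 clusters, in each of which all 8 markers, among them Pecam1, Cdh5 and Flt1, passed. Which cluster was most filled differed by group: cluster 5 held 43.8% of the NS-Sham endothelial-like nuclei and 5.36% of those of NS-I/R, and cluster 9 held 1.01% and 34.1%. A further cluster of 423 nuclei, 414 of them from NS-I/R, was led by heat-shock genes and left unnamed; with it added to the endothelial-like class, the 6 genes kept the calls given below. NS-I/R replicate 3 held 45 of the 66 Selplg UMIs of NS-I/R fibroblast-like nuclei and 23 of the 27 of pericyte-like nuclei. The source of these UMIs was not tested. Between library pairs, 5 to 20 barcodes were shared, at most 0.343%.

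In endothelial-like nuclei the selectins and Icam1 stood higher in NS-I/R than in NS-Sham, while Icam2 and Vcam1 did not pass the test. Levels are given as TMM-scaled CPM, which are a gene's UMIs relative to all UMIs of the class in that library after a correction for composition, and are compared only within a gene. Changes are log2 fold changes from edgeR's quasi-likelihood test with Benjamini-Hochberg adjustment over all 12457 genes tested in the class, and a gene is called at an adjusted p under 0.05. Of the 6 genes, 4 were called and all 4 were higher, beside 33.9% of all genes tested called in either direction and 17.7% called higher. The median log2 fold change of the 6 was 1.43, beside 0.01 over all genes.

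**Figure D1:**
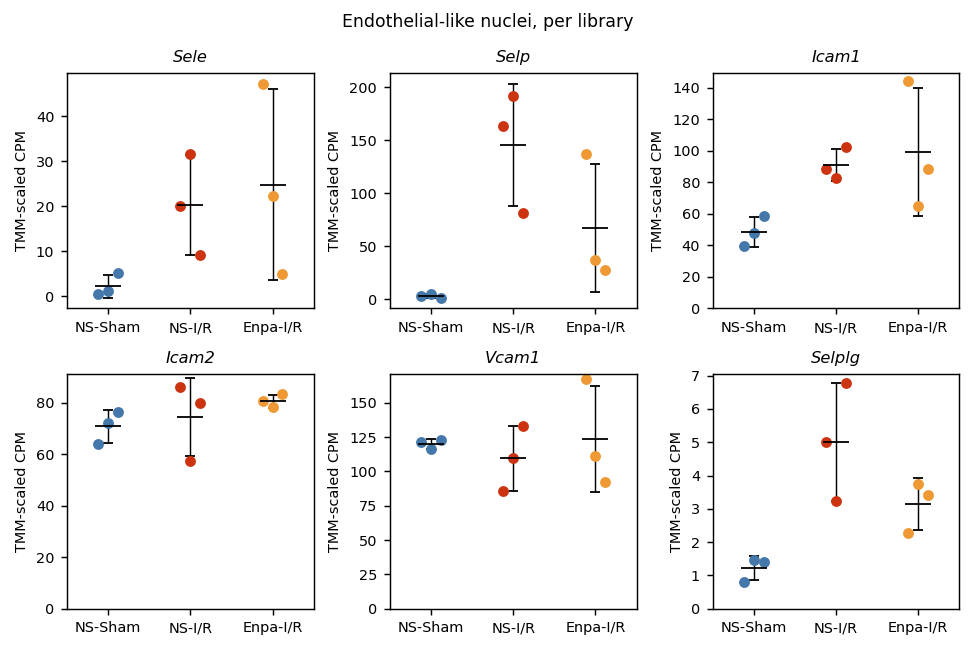
TMM-scaled CPM of each gene (vertical axes) in endothelial-like nuclei by group; points are libraries, and the black marks and bars are the mean and SD of 3. Selp lies between 80.8 and 192 CPM in NS-I/R and at or under 4.83 in NS-Sham, while the groups overlap for Icam2 and Vcam1.

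Selp was at 2.81, 4.83 and 1.40 CPM in the NS-Sham libraries and at 163, 192 and 80.8 in NS-I/R. The groups did not overlap, and each NS-I/R library was far above every NS-Sham library. Selp rose 41.9-fold, by 5.39 on the log2 scale ± 0.68 (SE, n = 3 against 3, edgeR adjusted p = 0.000102). This rested on 33 UMIs for NS-Sham and 1286 for NS-I/R, or 0.0064 and 0.325 ± 0.137 (SD, n = 3) UMIs per nucleus. After each nucleus was thinned to 1000 UMIs, so that depth was equal, 6.16% ± 1.97 (SD, n = 3) of NS-I/R endothelial-like nuclei had a Selp UMI, 0.266% ± 0.086 of NS-Sham nuclei, and 0.205% ± 0.091 of NS-I/R cardiomyocyte-like nuclei, which should lack the gene. Thinning left out 709 NS-I/R and 690 NS-Sham nuclei with fewer UMIs; without it the NS-I/R share was 8.04 percentage points above that of NS-Sham. The exact two-sided permutation p of the thinned shares was 0.1, the smallest that 3 against 3 allows (0.33 after adjustment over 188 such tests).

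Sele was at 0.402, 1.05 and 5.15 CPM among NS-Sham libraries, against 20.0, 31.5 and 9.13 for NS-I/R. The groups did not overlap, and NS-Sham replicate 3 was the highest of its group. Sele rose 10.7-fold, by 3.41 on the log2 scale ± 0.87 (edgeR adjusted p = 0.00949), on 17 UMIs for NS-Sham and 180 for NS-I/R. Without NS-Sham replicate 2 the change was 2.92 with an adjusted p of 0.0576. The Sele UMIs sat in few nuclei. In NS-Sham 5 endothelial-like nuclei held all 17, with 11 in a single nucleus, so the NS-Sham level rests on very few nuclei. In NS-I/R 82 endothelial-like nuclei held all 180, with up to 23 in a single nucleus. Of those 82 nuclei 58.5% also had a Selp UMI, beside 7.39% of the 3910 without Sele; their median depth was 2974.5 UMIs, beside 1666.5.

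Icam1, the integrin ligand for firm arrest, was at 39.8, 47.7 and 58.5 CPM among NS-Sham libraries, against 88.3, 82.5 and 102 for NS-I/R. The groups did not overlap. Icam1 rose 1.88-fold, by 0.91 on the log2 scale ± 0.24 (edgeR adjusted p = 0.0125). Without NS-Sham replicate 1 the change was 0.78 with an adjusted p of 0.0612.

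Icam2, a ligand of the same leukocyte integrin family, was at 63.9, 72.0 and 76.3 CPM among NS-Sham libraries, against 86.2, 57.2 and 79.8 for NS-I/R. Vcam1, the ligand of the alpha4 integrins, was at 121, 116 and 123 CPM among NS-Sham libraries, against 85.8, 110 and 133 for NS-I/R. Both genes overlapped between the groups. The log2 fold change of Icam2 was 0.07, with a 95% interval from -0.25 to 0.40 (edgeR adjusted p = 0.743). That of Vcam1 was -0.13, from -0.57 to 0.30 (adjusted p = 0.641).

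Selplg was at 0.803, 1.47 and 1.40 CPM among NS-Sham libraries, against 5.01, 3.25 and 6.76 for NS-I/R endothelial-like nuclei, with no overlap, and was called with a log2 fold change of 1.94 ± 0.44 (edgeR adjusted p = 0.00505). In NS-I/R it amounted to 44 UMIs, or 0.0110 per nucleus, beside 0.0129 in cardiomyocyte-like nuclei of the same libraries. In NS-Sham it stood at 0.0027 per nucleus, beside 0.0012 in cardiomyocyte-like nuclei. The part of free RNA in these values was not tested. In cardiomyocyte-like nuclei Selplg and Icam1 were called higher as well, 2 of the 4 members tested there, beside 45.3% of all genes. Neutrophil-like nuclei made up 0.04004% ± 0.0171 (SD, n = 3) of all nuclei for NS-Sham. Their share was 8.79% ± 1.32 for NS-I/R and 2.72% ± 1.94 with Enpatoran. Endothelial-like Selplg had the same order of groups, with means of 1.23, 5.01 and 3.14 CPM. Pooled cardiomyocyte-like Selplg had another order: 0.00121 UMIs per nucleus for NS-Sham, 0.0129 for NS-I/R and 0.0166 with Enpatoran. Icam1 of that class stood at 0.0232 UMIs per nucleus for NS-I/R and 0.0231 with Enpatoran. The part of the neutrophil-like share in the Selplg values was not tested.

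Between Enpa-I/R and NS-I/R none of the 6 genes was called in endothelial-like nuclei, beside 6.16% of the genes tested. Selp had the largest difference. Its Enpa-I/R libraries were at 137, 37.2 and 27.2 CPM, so that Enpa-I/R replicate 1 lay within the NS-I/R range of 80.8 to 192 and the other 2 below it. The log2 fold change was -1.08 ± 0.47, with a 95% interval from -2.09 to -0.06 (unadjusted p = 0.0395, edgeR adjusted p = 0.165). Without Enpa-I/R replicate 1 it was -2.17 (adjusted p = 0.0220) and without NS-I/R replicate 3 it was -1.34 (adjusted p = 0.0298), and with no filter on low counts it was -1.04 and was called. The share of endothelial-like nuclei with a Selp UMI after thinning was 1.98% ± 0.79 in Enpa-I/R against 6.16% ± 1.97 in NS-I/R, without overlap (exact permutation p = 0.1, the smallest possible; 0.33 adjusted). Leaving out NS-I/R replicate 3 raised the number of called genes in this comparison from 767 to 3690.

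Sele in Enpa-I/R was at 47.1, 22.1 and 4.91 CPM, and the log2 fold change over NS-I/R was 0.34 (95% interval from -0.94 to 1.62, edgeR adjusted p = 0.750). Its 259 UMIs were in 51 nuclei, and a single nucleus held 57 of them. Icam1 was at 144, 64.9 and 88.4 CPM, Icam2 at 80.4, 78.1 and 83.1, and Vcam1 at 167, 111 and 92.6. Their log2 fold changes were 0.14, 0.12 and 0.18, with 95% intervals from -0.37 to 0.64, from -0.21 to 0.44 and from -0.25 to 0.62. Enpa-I/R replicate 1 had the highest Sele, Selp, Icam1 and Vcam1 level of its group. Selplg was at 2.27, 3.75 and 3.40 CPM (log2 fold change -0.70, adjusted p = 0.262).

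Against NS-Sham, Enpa-I/R was higher for Selp by 4.31 on the log2 scale (edgeR adjusted p = 0.00211), for Sele by 3.75 (0.0137) and for Icam1 by 1.04 (0.0161), so 3 of the 6 genes were called beside 10.8% of all genes. Without Enpa-I/R replicate 1 the changes of Sele and Icam1 were 2.82 and 0.66, with adjusted p of 0.0806 and 0.0747. Both were also no longer called without NS-Sham replicate 1 (adjusted p = 0.0643 and 0.0803) or NS-Sham replicate 2 (0.0868 and 0.0685). Icam2 (0.19), Vcam1 (0.05) and Selplg (1.25) were not called. This comparison and the 1 of NS-I/R over NS-Sham share the same NS-Sham libraries.

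**Figure D2:**
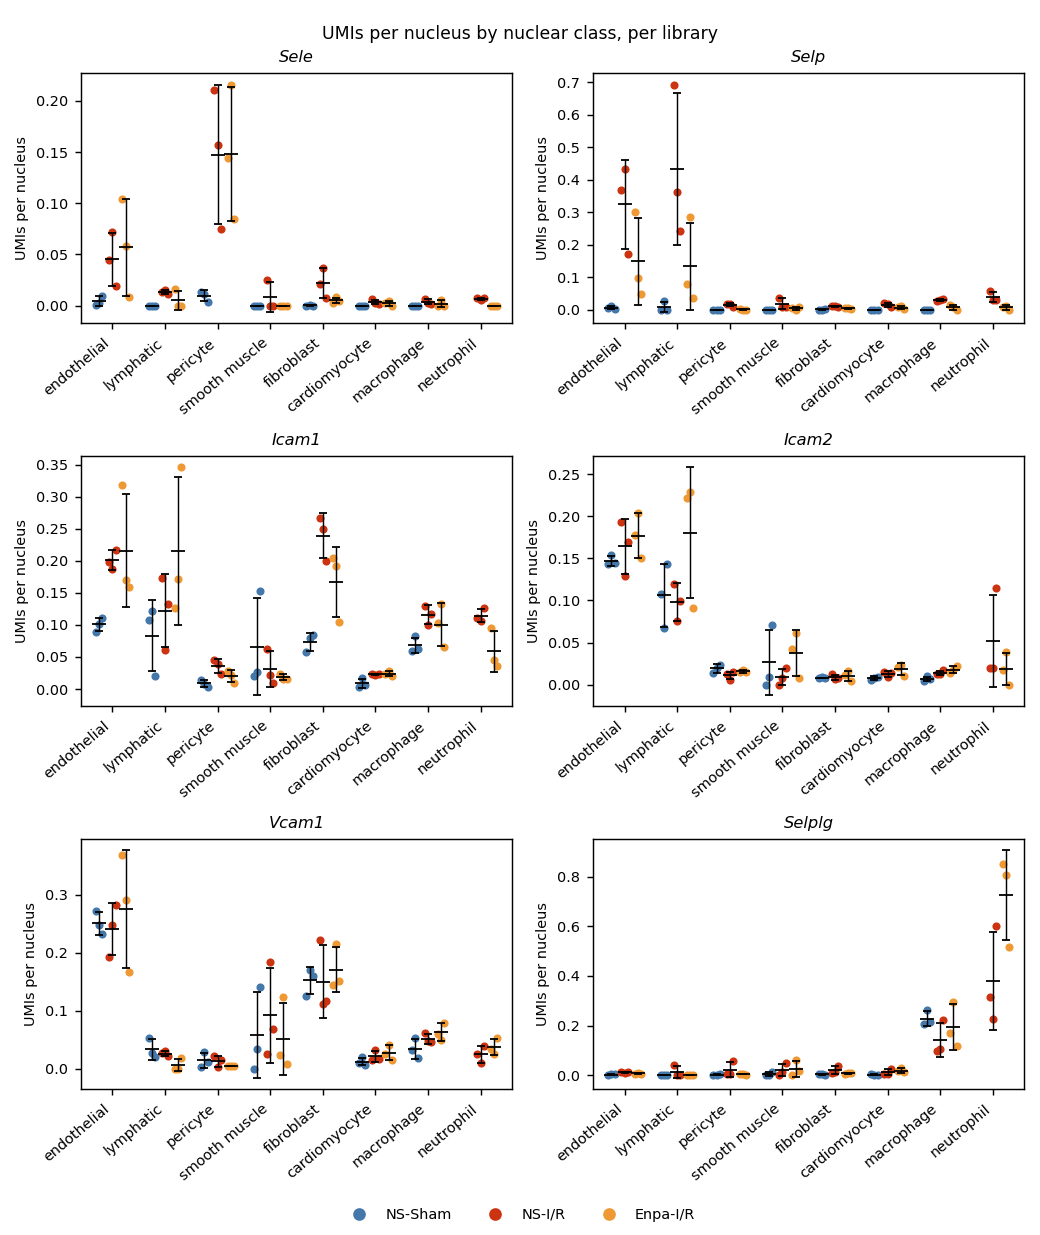
UMIs per nucleus of each gene (vertical axes) by nuclear class and group; points are libraries, and the black marks and bars are the mean and SD of 3. Among the classes plotted, in NS-I/R Selp is high in endothelial-like and lymphatic endothelial-like nuclei, Sele in endothelial-like and pericyte-like nuclei, and Selplg in macrophage-like and neutrophil-like nuclei.

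Free RNA was read from classes that should lack a gene. Of all 1631 Selp UMIs of NS-I/R, 78.8% were in endothelial-like and 6.01% in lymphatic endothelial-like nuclei. Per nucleus, Selp stood at 0.322 UMIs in the pooled endothelial-like nuclei of NS-I/R, at 0.0143 in cardiomyocyte-like, 0.0148 in pericyte-like, 0.0098 in fibroblast-like, 0.0157 in smooth muscle-like, 0.0298 (macrophage-like), 0.0376 (neutrophil-like) and 0.128 in the unnamed clusters. The Sele UMIs were divided differently: of 484 in NS-I/R, 37.2% were in endothelial-like, 31.6% in pericyte-like and 14.5% in fibroblast-like nuclei. The unnamed cluster held another 10.3%, or 50 Sele UMIs beside 53 of Selp. Per nucleus it had 0.121 Sele UMIs, beside 0.0451 in endothelial-like nuclei. The NS-I/R ratio of Sele to Selp UMIs was 0.140 in endothelial-like, 0.0306 in lymphatic endothelial-like, 0.238 in cardiomyocyte-like, 0.176 in neutrophil-like and 0.119 in macrophage-like nuclei. It was 9.56 in pericyte-like, 2.19 in fibroblast-like and 0.4 in smooth muscle-like nuclei, the last from 2 and 5 UMIs. The part of free RNA in these ratios was not tested.

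In lymphatic endothelial-like nuclei (160 nuclei from NS-Sham, 232 from NS-I/R, 153 from Enpa-I/R; all 7 lymphatic markers passed, among them Reln, Mmrn1 and Flt4), Selp was at 0, 9.31 and 0 CPM among NS-Sham libraries, against 205, 103 and 74.6 for NS-I/R. The groups did not overlap. Selp rose in NS-I/R, with a log2 fold change of 4.69 ± 0.77 (edgeR adjusted p = 0.000287). With only 2 UMIs in NS-Sham the size is uncertain: the ratio of UMIs over library totals was 30.6, with a 95% counting interval from 8.25 to 256. Selp was 1 of 2 of the genes testable there, beside 13.4% of all genes called.

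In Enpa-I/R lymphatic endothelial-like nuclei Selp was at 22.7, 63.9 and 12.2 CPM, all below the lowest NS-I/R library. The log2 fold change was -1.98 ± 0.51 (unadjusted p = 0.000811, edgeR adjusted p = 0.0552), where 1.19% of all genes were called. Without NS-I/R replicate 3 it was -2.27 (adjusted p = 0.00537) and without Enpa-I/R replicate 2 it was -2.77 (0.0397). The difference of the NS-I/R change of Selp, endothelial-like minus lymphatic endothelial-like, was 1.98 ± 0.59 on the log2 scale and was not called (limma adjusted p = 0.0852, beside 2.75% of genes called). Sele had 3 UMIs in NS-I/R lymphatic endothelial-like nuclei and none in NS-Sham. Icam2 (38.5 ± 20.2 CPM for NS-Sham, 29.2 ± 7.1 for NS-I/R) was tested and not called. Icam1 (27.2 ± 16.9 and 36.4 ± 17.4 CPM) and Vcam1 (11.2 ± 3.7 and 7.76 ± 0.92 CPM), on 5 to 29 UMIs a group, were too low to be tested.

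Pericyte-like nuclei (1143, 1079 and 1046 per group; all 8 markers, among them Pdgfrb, Rgs5 and Abcc9, passed) carried Sele UMIs, 153 in NS-I/R against 16 of Selp. Sele was at 5.11, 4.66 and 1.87 CPM among NS-Sham libraries, at 77.9, 61.3 and 31.7 for NS-I/R, and at 61.7, 69.3 and 39.8 with Enpa-I/R. Both injured groups lay wholly above NS-Sham and overlapped each other. Sele rose 13.03-fold in NS-I/R, by 3.70 on the log2 scale ± 0.44 (edgeR adjusted p = 1.91e-05), beside 24.1% of all genes called. Between Enpa-I/R and NS-I/R the log2 fold change was 0.00, with a 95% interval from -0.62 to 0.63 (edgeR adjusted p = 0.998, 5.77% of genes called).

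The Sele UMIs of pericyte-like nuclei were set beside endothelial RNA in the same nuclei. In NS-I/R 78 nuclei held 153 Sele UMIs, up to 13 in a single nucleus; 38.5% of these 78 had a UMI of an endothelial marker, beside 38.8% of the 1001 without Sele, and 2.56% had a Selp UMI, beside 1.30%. In Enpa-I/R 45 nuclei held 143 Sele UMIs, up to 31 in 1 nucleus. Of these 45, 46.7% had a UMI of an endothelial marker, beside 34.6% of the 1001 without Sele, and 0% had a Selp UMI, beside 0.0999%. Pericyte-like nuclei with Sele were also deeper: their median was 2783.5 UMIs beside 2028 in NS-I/R, and 3094 beside 2152 in Enpa-I/R. The part of depth or endothelial RNA in these shares was not tested. Among pericyte-like nuclei with no UMI of any endothelial marker, the log2 fold change of Sele was 3.67 ± 0.56 (edgeR adjusted p = 6.92e-05). The change of Sele was not called different between endothelial-like and pericyte-like nuclei (difference -0.15 ± 0.71, endothelial minus pericyte, limma adjusted p = 0.941, 6.79% of genes called).

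Icam1 in pericyte-like nuclei was at 5.11, 3.33 and 1.87 CPM among NS-Sham libraries, at 16.9, 15.03 and 10.2 for NS-I/R, and at 12.3, 7.07 and 4.68 with Enpa-I/R. NS-I/R lay wholly above NS-Sham. The log2 fold change was 1.94 ± 0.51 (edgeR adjusted p = 0.0117) on 10 and 38 UMIs, and 0.0352 UMIs per nucleus in NS-I/R is near the 0.0232 of cardiomyocyte-like nuclei. The call was lost without NS-Sham replicate 2 (adjusted p = 0.0762), NS-Sham replicate 3 (0.0501) or NS-I/R replicate 1 (0.0542), with the doublets kept (0.0696) and in DESeq2 (0.0653). Enpa-I/R minus NS-I/R was -0.76 (adjusted p = 0.323).

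In smooth muscle-like nuclei (251, 319 and 359 nuclei; 7 markers, among them Myh11 and Acta2, passed) none of the 6 genes had enough counts to be tested. Sele and Selp had no UMI in the 251 NS-Sham nuclei, which allows a share of nuclei with a UMI of up to 1.195%, and 2 and 5 UMIs in NS-I/R. Vcam1 was at 15.7 ± 19.9 CPM for NS-Sham, 22.9 ± 19.8 for NS-I/R and 10.8 ± 11.3 with Enpatoran (SD, n = 3), and Icam1 at 17.3 ± 20.8, 7.97 ± 7.14 and 4.81 ± 1.61.

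Fibroblast-like nuclei (2755, 3256 and 2640 per group) carried Icam1 and Vcam1. Icam1 was at 16.0, 22.5 and 28.3 CPM among NS-Sham libraries, at 70.0, 61.6 and 48.4 for NS-I/R, and at 50.2, 35.3 and 28.4 with Enpa-I/R. NS-I/R lay wholly above NS-Sham, and Enpa-I/R reached from the top of NS-Sham into the NS-I/R range. Icam1 rose 2.70-fold in NS-I/R, by 1.43 on the log2 scale ± 0.25 (edgeR adjusted p = 0.000647), beside 46.3% of all genes called. In NS-I/R 772 Icam1 UMIs gave 0.237 per nucleus, beside 0.0232 in cardiomyocyte-like nuclei, and in nuclei with no endothelial marker UMI the log2 fold change was 1.40 ± 0.31 (adjusted p = 0.00250).

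Most of these Icam1 UMIs (607 of 772) were in cluster 4, led by Tnc and Adam12, which held 60.8% of the NS-I/R fibroblast-like nuclei and 0.218% of those of NS-Sham; cluster 0 held 76.3% of the NS-Sham nuclei. Of the 70 Sele UMIs of NS-I/R fibroblast-like nuclei, 68 were in cluster 4. The class had 36 Sele-positive nuclei, of which none had a Selp UMI, beside 0.963% of the 3220 without Sele. So few nuclei cannot show a difference from a share that low. An endothelial marker UMI was present in 58.3% of the 36, beside 52.8%, and their median depth was 5016 UMIs, beside 3180. The difference of the NS-I/R change of Icam1, endothelial-like minus fibroblast-like, was -0.51 ± 0.23 and was not called (limma adjusted p = 0.135, 19.1% of genes called). Enpa-I/R minus NS-I/R was -0.65 ± 0.23 for fibroblast-like Icam1 (edgeR adjusted p = 0.0900, 9.37% of genes called). Without NS-I/R replicate 3 that difference was -0.77 with an adjusted p of 0.00882, and with no filter on low counts its adjusted p was 0.0117. Vcam1 was at 34.9, 48.8 and 53.6 CPM among NS-Sham libraries, at 58.4, 27.5 and 28.2 for NS-I/R, and at 35.8, 39.5 and 41.3 with Enpa-I/R, overlapping throughout (log2 fold changes of -0.28 and 0.04, adjusted p = 0.421 and 0.936); without NS-I/R replicate 1, whose level was the highest, the NS-I/R change of Vcam1 was -0.71 (adjusted p = 0.0118).

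Within the endothelial-like class, cluster 10 was arterial-like (7 markers passed from a list of 8 with Sox17, Gja4 and Sema3g), cluster 13 venous-like (3 passed from a list of 6 with Nr2f2, Ephb4 and Vwf) and cluster 15 endocardial-like (all 7 passed, among them Npr3 and Nrg1). Clusters 2, 5 and 9 passed the naming rule for no vessel type and are described together. Markers were scored against the median over the endothelial-like clusters, so a type that fills many of them, such as capillary, can hardly pass. By mean log2 ratio to that median, clusters 2 and 5 were closest to the capillary list (0.43 and 0.47) and cluster 9 to the arterial list (0.065). Sele, Selp, Icam1 and Vcam1 are given by type.

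**Figure D3:**
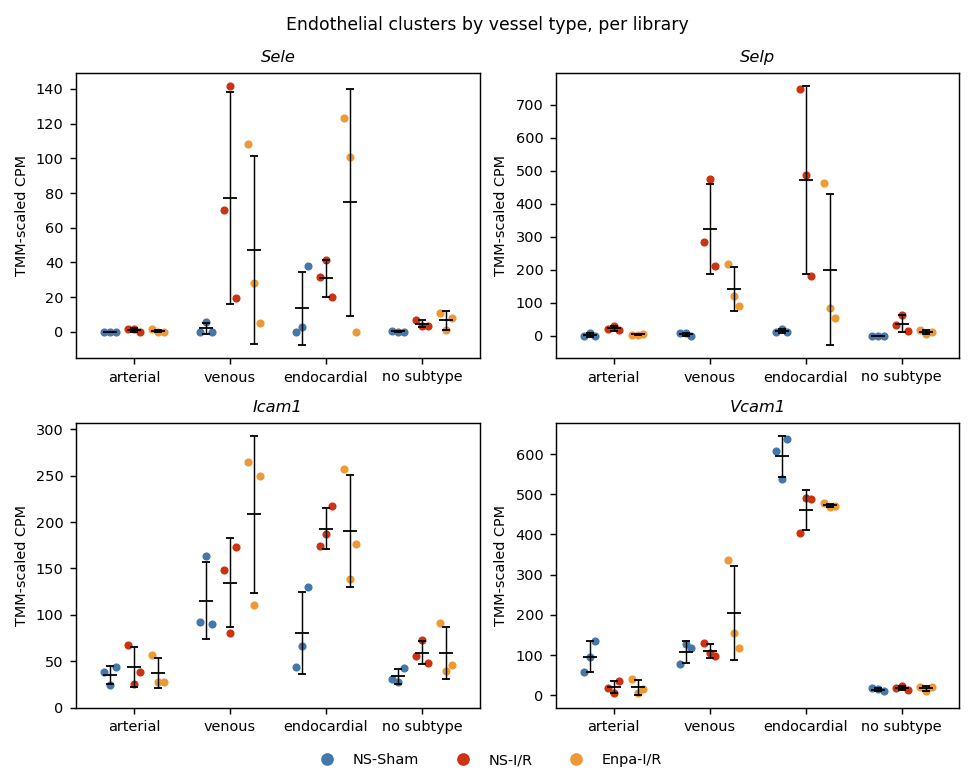
TMM-scaled CPM of Sele, Selp, Icam1 and Vcam1 (vertical axes) in the 4 sets of endothelial-like clusters by group; points are libraries, and the black marks and bars are the mean and SD of 3. Selp of NS-I/R lies between 211 and 475 CPM in venous-like and between 182 and 748 in endocardial-like nuclei, against at most 7.68 and 20.4 in NS-Sham, and arterial-like Vcam1 lies between 5.43 and 35.3 CPM in NS-I/R against 58.8 to 134 in NS-Sham.

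In venous-like nuclei, where leukocytes classically leave the blood, Selp was at 7.38, 7.68 and 0 CPM among NS-Sham libraries, against 284, 475 and 211 for NS-I/R, without overlap. It rose by 5.71 on the log2 scale ± 0.53 (edgeR adjusted p = 1.08e-06, 16.2% of genes called). Sele was at 0, 5.76 and 0 CPM among NS-Sham libraries, against 70.4, 142 and 19.8 for NS-I/R. It was called (log2 fold change 4.61 ± 1.09, adjusted p = 0.00653), and with 3 UMIs in NS-Sham the ratio was 28.4, with a 95% counting interval from 9.46 to 140. Icam1 was at 92.3, 163 and 90.6 CPM among NS-Sham libraries, against 149, 80.9 and 173 for NS-I/R, with overlap (log2 fold change 0.14, adjusted p = 0.815), and Vcam1 at 77.5, 129 and 118 against 131, 105 and 96.6 (0.01, adjusted p = 0.984). So 2 of the 5 genes tested were called.

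In venous-like nuclei of Enpa-I/R, Selp was at 216, 120 and 89.4 CPM; replicate 1 reached the NS-I/R range and the other 2 lay below it. The log2 fold change over NS-I/R was -1.15 ± 0.30 (unadjusted p = 0.00102, edgeR adjusted p = 0.0539, 1.66% of genes called). Without NS-I/R replicate 3 it was -1.36 (adjusted p = 0.00209) and without Enpa-I/R replicate 1 it was -1.61 (0.0348). Sele was at 108, 28.3 and 5.26 CPM (log2 fold change -0.58, adjusted p = 0.686). Vcam1 at 338, 156 and 118 CPM and Icam1 at 265, 111 and 250 had log2 fold changes of 0.91 (adjusted p = 0.123) and 0.65 (0.312).

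Endocardial-like nuclei had Selp at 13.02, 20.4 and 10.3 CPM among NS-Sham libraries, at 748, 487 and 182 for NS-I/R, and at 463, 83.4 and 54.8 with Enpa-I/R. NS-I/R lay wholly above NS-Sham, and Enpa-I/R overlapped NS-I/R. The log2 fold change of NS-I/R over NS-Sham was 4.83 ± 0.76 (edgeR adjusted p = 0.000605, 10.6% of genes called) and that of Enpa-I/R over NS-I/R -1.10 ± 0.53 (adjusted p = 0.334, 0.502% of genes called). Without Enpa-I/R replicate 1 the latter was -2.71 (adjusted p = 0.0154) and without NS-I/R replicate 3 it was -1.47 (0.0347). Sele was at 0, 2.72 and 37.7 CPM among NS-Sham libraries, at 31.4, 41.4 and 20.0 for NS-I/R, and at 123, 101 and 0 with Enpa-I/R, with overlap between all groups.

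Icam1 in endocardial-like nuclei was at 44.3, 66.7 and 130 CPM among NS-Sham libraries, against 174, 187 and 217 for NS-I/R, without overlap, and rose by 1.34 on the log2 scale ± 0.30 (edgeR adjusted p = 0.00775). Without NS-Sham replicate 1 or 2 the adjusted p was 0.0547 or 0.0543. Vcam1 was higher here than in the other endothelial-like sets in every library: at 607, 539 and 638 CPM for NS-Sham, 403, 491 and 488 for NS-I/R, and 478, 469 and 470 with Enpa-I/R. Its log2 fold change of -0.36 in NS-I/R had an adjusted p of 0.163. Endocardial-like nuclei thus held 815 of the 1117 Vcam1 UMIs of the NS-Sham endothelial-like class in 421 of its 4462 nuclei.

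Arterial-like nuclei were the set in which an adhesion receptor was called lower. Vcam1 was at 58.8, 96.0 and 134 CPM among NS-Sham libraries, at 18.5, 5.43 and 35.3 for NS-I/R, and at 40.3, 4.66 and 15.1 with Enpa-I/R. Both injured groups lay wholly below NS-Sham. In NS-I/R Vcam1 fell by 2.38 on the log2 scale ± 0.51 (edgeR adjusted p = 0.00505, 12.4% of genes called), from 107 to 26 UMIs. Enpa-I/R minus NS-I/R was 0.33 (adjusted p = 0.848, 1.13% of genes called). The change of Vcam1 in venous-like nuclei exceeded that in arterial-like nuclei by 2.29 ± 0.45 (limma adjusted p = 0.00478), where 2.26% of genes were called. This difference was not called without NS-Sham replicate 3 (2.10, adjusted p = 0.0568) or NS-I/R replicate 2 (1.77, 0.0656), and endocardial minus arterial was 1.84 ± 0.48 (adjusted p = 0.0626, 1% of genes called). Arterial-like Icam1 had a log2 fold change of 0.37 (adjusted p = 0.603) in NS-I/R and of -0.17 (0.874) between Enpa-I/R and NS-I/R.

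In clusters 2, 5 and 9, no Selp UMI was found in 3093 NS-Sham nuclei, which allows a share of nuclei with a UMI of up to 0.097%, and 152 UMIs were found in 2346 NS-I/R nuclei, which is at least 72.9-fold higher when 3 UMIs over the NS-Sham group are taken as its upper limit. Of the 152, 141 were in cluster 9, which held only 45 NS-Sham nuclei. These clusters also held 246 Icam1 UMIs in NS-I/R against 178 in NS-Sham (59.2 ± 12.7 and 33.6 ± 7.8 CPM, SD, n = 3) and few Vcam1 UMIs (76 and 81). By the same edgeR test, 4 of the 6 genes could be tested in this set. In NS-I/R over NS-Sham 2 were called, both higher. The median log2 fold change was 0.59, beside 0.0093 over all genes. Enpa-I/R over NS-Sham had 1 call, which was higher, and Enpa-I/R over NS-I/R had none. The share of all genes called in this set is not reported here.

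**Figure D4:**
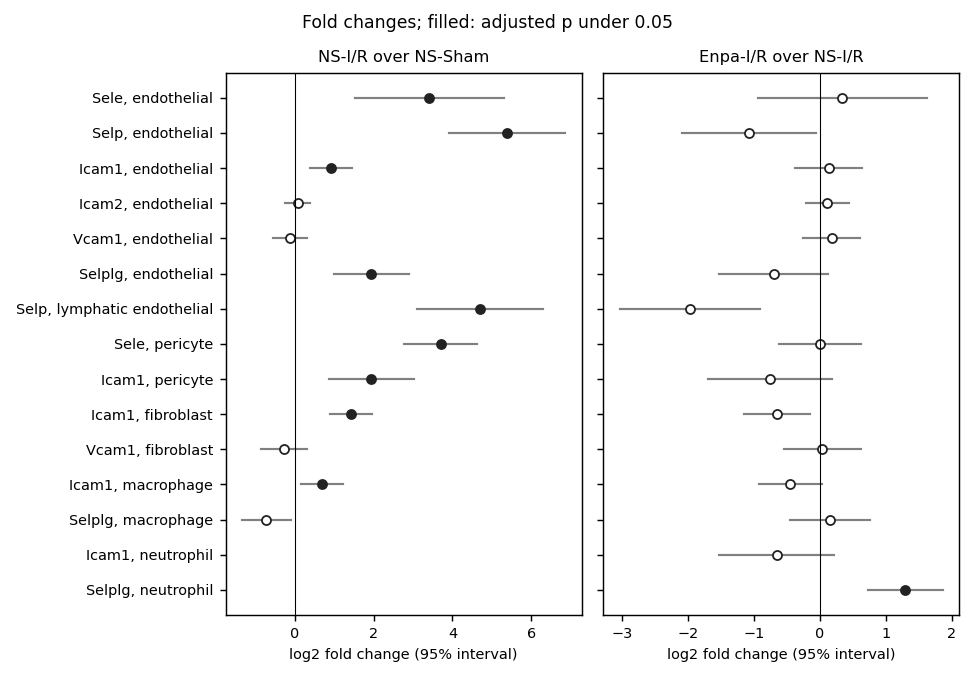
Log2 fold changes (horizontal axes) with 95% intervals from edgeR for the genes and classes named on the vertical axes, NS-I/R over NS-Sham and Enpa-I/R over NS-I/R; filled points have an adjusted p under 0.05. Of the pairs plotted, endothelial-like Selp lies farthest to the right in NS-I/R over NS-Sham at 5.39, and neutrophil-like Selplg is the only filled point in Enpa-I/R over NS-I/R.

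Selplg, the ligand on the leukocyte side, was carried by leukocyte classes. In NS-Sham 67.2% of its 290 UMIs were in macrophage-like nuclei, and in NS-I/R 52.7% of 1044 were in neutrophil-like nuclei. T and natural killer (NK) lymphocyte-like nuclei held 18.6% and 6.80%, and were too few to be tested (58 and 91 nuclei). Per nucleus they had 0.931 Selplg UMIs in NS-Sham, beside 0.237 in macrophage-like nuclei. In NS-I/R they had 0.780, beside 0.406 in neutrophil-like and 0.146 in macrophage-like nuclei. Macrophage-like Selplg was at 85.6, 108 and 90.1 CPM among NS-Sham libraries, at 38.7, 42.2 and 90.4 for NS-I/R, and at 63.9, 79.0 and 48.0 with Enpa-I/R. NS-I/R replicate 3 lay in the NS-Sham range and the other 2 far below it. The log2 fold change of NS-I/R over NS-Sham was -0.73 ± 0.29 (edgeR adjusted p = 0.0636, 35.1% of genes called), and -1.24 (adjusted p = 0.00042) without NS-I/R replicate 3. That of Enpa-I/R over NS-I/R was 0.16 (adjusted p = 0.798), and 0.68 (adjusted p = 0.0472) without the same library. Cluster 16, led by F13a1 and Arg1, held 6.67% of the NS-Sham and 50.8% of the NS-I/R macrophage-like nuclei, and cluster 7 the rest.

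In neutrophil-like nuclei, which could be compared between the 6 injured libraries only, Selplg was at 219, 174 and 300 CPM for NS-I/R, and at 678, 536 and 491 with Enpa-I/R. The groups did not overlap. Selplg was higher in Enpa-I/R by 1.30 on the log2 scale ± 0.27 (edgeR adjusted p = 0.0279), on 550 UMIs in 1356 nuclei against 252 in 326, and 1.79% of the genes tested were called. The call was lost when any library but NS-I/R replicate 3 was left out: with NS-I/R replicate 1 or 2 removed the adjusted p was 0.0976 or 0.122, and with Enpa-I/R replicate 1, 2 or 3 removed it was 0.147, 0.159 or 0.116, with log2 fold changes from 1.10 to 1.38. Icam1 was at 77.5, 82.3 and 62.8 CPM for NS-I/R, and at 76.1, 29.99 and 33.8 with Enpa-I/R neutrophil-like nuclei (log2 fold change -0.65, adjusted p = 0.431). In macrophage-like nuclei Icam1 was at 24.7, 33.6 and 26.5 CPM for NS-Sham, 52.4, 39.3 and 47.9 for NS-I/R, and 38.5, 35.6 and 27.4 with Enpa-I/R. It was called with a log2 fold change of 0.68 (adjusted p = 0.0433), a call lost without 7 of the 9 libraries taken 1 at a time (adjusted p from 0.0522 to 0.132), but kept without the second NS-I/R or the third Enpa-I/R library; Enpa-I/R minus NS-I/R was -0.45 (0.255).

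Partners of the 6 genes were read from lists chosen by function. Of the 12 tested genes of endothelial transmigration, 4 were higher and 2 lower in NS-I/R than NS-Sham in endothelial-like nuclei (median log2 fold change 0.02, beside 0.01 over all genes, of which 33.9% were called). Alcam, an immunoglobulin-type adhesion molecule, rose to 58.6 ± 6.0 CPM from 12.9 ± 1.8 (SD, n = 3; log2 fold change 2.17, edgeR adjusted p = 2.34e-05), and Mcam (CD146) rose from 59.1 ± 9.2 to 170.8 ± 25.8 (1.54). Jam3, a junctional adhesion molecule, fell from 131 ± 13 to 53.0 ± 6.4 CPM (-1.30). Between Enpa-I/R and NS-I/R 1 of the 12 was called, beside 6.16% of all genes: Cd34, a sialomucin, from 118 ± 18 in NS-I/R to 160.2 ± 6.0 CPM (0.44, adjusted p = 0.0475).

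Of 12 proteins that anchor Icam1 and Vcam1 to the cytoskeleton or cluster them, 4 were higher and 2 lower in NS-I/R (median 0.06), beside the same 33.9% of all genes, and none was called between Enpa-I/R and NS-I/R, beside 6.16%. Moesin (Msn), a membrane-cytoskeleton linker, rose to 525 ± 6 CPM from 289 ± 17 (log2 fold change 0.86, edgeR adjusted p = 3.26e-05), filamin A (Flna) by 0.86 and the tetraspanin Cd9 by 0.78. Of 9 tested genes of endothelial activation, 4 were higher and 1 lower in NS-I/R (median 0.75, 33.9% of all genes called) and 2 were lower in Enpa-I/R than in NS-I/R (median -0.27, 6.16% called). Tnfaip3, an inhibitor of NF-kappaB signalling, rose by 1.66 and Cd40 fell by 0.96 in NS-I/R, and the scavenging receptor Ackr3 had a log2 fold change of -0.56 between Enpa-I/R and NS-I/R (adjusted p = 0.0409).

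On the leukocyte side, 4 of 10 tested genes of selectin ligand synthesis and ligand carriers were higher and 3 lower in NS-I/R macrophage-like nuclei (median 0.19, beside 0.03 over all genes, of which 35.1% were called). The carrier Cd44 rose to 931 ± 219 CPM from 374 ± 59 (log2 fold change 1.32, edgeR adjusted p = 0.000242), Cd24a rose by 3.72, and the sialyltransferase St3gal6 fell from 332 ± 44 to 72.5 ± 19.8 CPM (-2.20, adjusted p = 1.40e-06). None of the 10 was called between Enpa-I/R and NS-I/R, where 6.27% of genes were called. Of 8 tested counter-receptors, 3 were higher and 1 lower in NS-I/R (median 0.38), beside 35.1% of all genes, and 1 was lower in Enpa-I/R than in NS-I/R, beside 6.27%. Itgam, the alpha chain of the Mac-1 integrin that binds Icam1, was at 186 ± 23 CPM for NS-Sham, 1404 ± 381 for NS-I/R and 700.4 ± 41.9 with Enpatoran (log2 fold changes of 2.93 and -1.002, adjusted p = 6.34e-08 and 0.00478). Itga4, the alpha chain of the Vcam1 receptor, fell from 405 ± 124 to 109 ± 11 CPM (-1.89). Neutrophil RNA in macrophage-like nuclei was not tested as a part of these values.

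Genes whose level followed each member over 21 points (7 classes by 3 groups, log2 of CPM + 1, 12355 genes searched) are given as a description; the points share libraries. For Selp these were Ctla2a (Pearson r = 0.939), Git1 and Sh2d5, and for Icam1 Klf3 (0.931), Xdh and Itpr3. Icam2 was followed by Ptprb (0.979), Egfl7 and Cyyr1, which are also markers used to name the endothelial-like class, and Vcam1 by Enpp6 (0.900), Eogt and Papss2. Selplg was followed by Hk3, Snx20 (0.970) and Ctss. For Sele the highest value was lower, 0.788 for Sema6d, before Cldn15 and Kcnh1.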

How the data were processed

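Nuclei of 9 mouse heart libraries were measured by droplet single-nucleus RNA sequencing. The deposited matrices hold raw UMI counts per gene and barcode, which the authors made with Cell Ranger; its version is 8.0.0 per the file headers and 6.1.1 per the submitters' processing notes, which also list Seurat and the builds GRCh38 and GRCm39. Gene positions come from a GRCm38 annotation that held 32158 of the 32285 gene IDs.

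Barcodes with at least 500 genes and at most 5% mitochondrial UMIs were kept (11.8 to 23.7% of barcodes per library exceeded that limit), and the highest-scoring Scrublet doublets, 0.8% per 1000 barcodes, were removed. Nuclei were clustered with scanpy 1.11.5 (2000 variable genes without the 6 members, 30 components, 15 neighbours, Leiden resolution 1), giving 27 clusters, named from 14 marker sets with thresholds set after seeing the data. A marker passed at 5% detection and 2 times the median over clusters, and a name needed 3 markers. The UMIs of each class were added up within a library and fitted over all 9 libraries with edgeR 4.0.16 (filterByExpr, TMM, quasi-likelihood test, Benjamini-Hochberg adjustment, threshold 0.05); neutrophil-like nuclei used the 6 I/R libraries. A class was tested with at least 25 nuclei in each library. Changes were compared between classes with limma 3.58.1 (prior count 2), the vessel-type pairs being added after seeing the data. Shares were thinned to 1000 UMIs and tested by exact two-sided permutation. Intervals and floors cover counting error only. Members, lists and the named results were chosen with earlier results of these data known.

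The following counts leave out cardiomyocyte-like nuclei and the endothelial-like clusters that passed the naming rule for no vessel type. Calls in both are given above, except for 1 in cardiomyocyte-like nuclei for Enpa-I/R over NS-Sham, which was higher. Of the 92 tests of the 6 genes that remain, 25 were called. Of these 92 tests 52 are described, 18 of them called. The other 7 calls were Enpa-I/R over NS-Sham for fibroblast-like Icam1, pericyte-like Sele, arterial-like Vcam1, venous-like Selp and endocardial-like Selp and Icam1, and NS-I/R over NS-Sham for macrophage-like Selp (42 UMIs). List genes are named as the up to 3 called genes with the largest change per list and comparison; some are not reported here. On simulated data at log2 fold 1, edgeR recovered 70% of 200 changed genes in endothelial-like nuclei (NS-I/R minus NS-Sham), among 12457 genes. The limma test of a difference between classes recovered 27% of them, so a change it left uncalled may still differ between classes. Alternatives were other normalization, filters, a replicate block, left-out libraries, DESeq2 1.42.0, other nuclei limits and clusterings.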

Additional observations from a re-analysis of the deposited data

Results flagged for a closer look

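The change of Vcam1 from NS-Sham to NS-I/R differed between venous-like and arterial-like nuclei by 2.29 on the log2 scale by a test of the difference itself (limma adjusted p = 0.00478).

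Mesothelial-like nuclei, which entered no comparison, held Vcam1 at 0.506 UMIs per nucleus in NS-I/R (39 UMIs in 77 nuclei), with 0.769, 0.432 and 0.5 in its 3 libraries. NS-Sham held 3 UMIs in 80 nuclei (0, 0 and 0.25 per nucleus by library), and Enpa-I/R 27 in 53 nuclei (0.571, 0.429 and 0.455). No test was made with so few nuclei.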

How the results depend on the processing

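Over 52 log2 fold changes of the 6 genes, 920 alternatives kept the direction in 879 and the direction and side of the threshold in 822; 33 lost the call, 24 gained one and 41 reversed in sign. NS-I/R against NS-Sham is the injury comparison here, Enpa-I/R against NS-I/R the drug comparison and Enpa-I/R against NS-Sham the drug over sham comparison. The calls of Selp in the injury comparison were kept under all alternatives run in endothelial-like, lymphatic endothelial-like, venous-like and endocardial-like nuclei. The cause of the following changes was not tested. At Leiden resolution 2, the sign reversed for endothelial-like Icam2 in the injury comparison (-0.070). There, the call was lost for neutrophil-like Selplg in the drug comparison (1.198, adjusted p = 0.0555). With the unnamed cluster added, the sign reversed for endothelial-like Icam2 in the injury comparison (-0.061). With no filter on low counts, a call was gained for endothelial-like Selp in the drug comparison (-1.04, adjusted p = 1.51e-09), lymphatic endothelial-like Selp in the drug comparison (-2.02, adjusted p = 0.00133), fibroblast-like Icam1 in the drug comparison (-0.62, adjusted p = 0.0117), macrophage-like Selplg in the injury comparison (-0.67, adjusted p = 0.0208), venous-like Selp in the drug comparison (-1.14, adjusted p = 1.26e-05), venous-like Vcam1 in the drug comparison (0.92, adjusted p = 0.00331) and endocardial-like Selp in the drug comparison (-1.07, adjusted p = 2.31e-05). There, the call was lost for macrophage-like Icam1 in the injury comparison (0.73, adjusted p = 0.0686). With the replicate block, a call was gained for lymphatic endothelial-like Selp in the drug comparison (-2.03, adjusted p = 0.0341), venous-like Selp in the drug comparison (-1.16, adjusted p = 0.0139) and endocardial-like Selp in the drug comparison (-1.47, adjusted p = 0.0228). There, the call was lost for macrophage-like Icam1 in the injury comparison (0.69, adjusted p = 0.0577). There, the sign reversed for venous-like Vcam1 in the injury comparison (-0.017). In DESeq2, the call was lost for pericyte-like Icam1 in the injury comparison (1.99, adjusted p = 0.0653) and macrophage-like Icam1 in the injury comparison (0.71, adjusted p = 0.121). There, the sign reversed for pericyte-like Sele in the drug comparison (-0.0072) and endocardial-like Icam1 in the drug comparison (-0.013). With doublets kept, the call was lost for pericyte-like Icam1 in the injury comparison (1.23, adjusted p = 0.0696). There, the sign reversed for pericyte-like Sele in the drug comparison (-0.10) and endocardial-like Icam1 in the drug comparison (-0.038). With DESeq2 size factors, the sign reversed for pericyte-like Sele in the drug comparison (-0.0029) and endocardial-like Icam1 in the drug comparison (-0.00077). With a mitochondrial limit of 20%, the sign reversed for pericyte-like Sele in the drug comparison (-0.10). There, a call was gained for endocardial-like Vcam1 in the injury comparison (-0.48, adjusted p = 0.0497). In nuclei without endothelial marker UMIs, the sign reversed for fibroblast-like Vcam1 in the injury comparison (0.058). In a fit of only the 6 libraries compared, the call was lost for macrophage-like Icam1 in the injury comparison (0.69, adjusted p = 0.0662). With at least 1000 genes per nucleus, the call was lost for macrophage-like Icam1 in the injury comparison (0.59, adjusted p = 0.119). There, a call was gained for macrophage-like Selplg in the injury comparison (-0.87, adjusted p = 0.0413). The replicate numbers share only a number: same-numbered libraries correlated from -0.0975 to 0.0744 (9 pairs) and others from -0.0649 to 0.118 (18 pairs). Venous-like nuclei were not named with a mitochondrial limit of 20% or with doublets kept, so no value was had there.

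With 1 library left out at a time, log2 fold changes in the injury comparison ranged as follows: endothelial-like Sele 2.92 to 4.55, endothelial-like Icam1 0.78 to 1.03, endothelial-like Icam2 -0.045 to 0.23, endothelial-like Vcam1 -0.30 to 0.018, pericyte-like Icam1 1.76 to 2.21, fibroblast-like Vcam1 -0.71 to -0.088, macrophage-like Icam1 0.59 to 0.86, macrophage-like Selplg -1.24 to -0.50, arterial-like Icam1 -0.15 to 0.69, venous-like Icam1 -0.085 to 0.56, venous-like Vcam1 -0.16 to 0.21, endocardial-like Icam1 1.07 to 1.74. In the drug comparison the leave-one-out ranges were: endothelial-like Sele -0.58 to 0.82, endothelial-like Selp -2.17 to -0.71, endothelial-like Icam1 -0.24 to 0.36, endothelial-like Icam2 -0.044 to 0.23, endothelial-like Vcam1 -0.10 to 0.36, lymphatic endothelial-like Selp -2.77 to -1.46, pericyte-like Sele -0.29 to 0.29, fibroblast-like Icam1 -0.91 to -0.47, fibroblast-like Vcam1 -0.15 to 0.48, macrophage-like Selplg -0.063 to 0.68, neutrophil-like Selplg 1.10 to 1.54, arterial-like Icam1 -0.65 to 0.36, arterial-like Vcam1 -0.81 to 0.91, venous-like Sele -2.15 to 0.18, venous-like Selp -1.61 to -0.76, endocardial-like Selp -2.71 to -0.61, endocardial-like Icam1 -0.31 to 0.19, endocardial-like Vcam1 -0.051 to 0.079. In the drug over sham comparison they were: endothelial-like Sele 2.82 to 4.89, endothelial-like Icam1 0.66 to 1.26, endothelial-like Vcam1 -0.23 to 0.22. The venous minus arterial difference of Vcam1 ranged from 1.77 to 2.85. Without NS-Sham replicate 2 and NS-Sham replicate 1, respectively, the endothelial-like Sele and Icam1 calls of the injury comparison were lost. The number of endothelial-like genes called in the drug comparison, 767, was 2003 with no filter on low counts, 272 in a fit of only the 6 libraries, 497 with at least 1000 genes per nucleus, and 96 to 3690 with 1 library left out. In the drug over sham comparison the number, 1348, was 2069 with only the 6 libraries and 645 to 2250 with 1 library left out.

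Differences of shares of nuclei with a UMI depend on depth. With thinning to 500 UMIs the injury differences in endothelial-like nuclei were 0.658 percentage points for Sele, 3.37 for Selp and 2.04 for Icam1. With no thinning they were 1.97, 8.04 and 5.44, and the drug difference of Sele was -0.930. Also with no thinning, fibroblast-like Icam1 differed by 9.73 (injury) and -3.90 (drug), and lymphatic endothelial-like Selp by 16.5 and -9.10 percentage points. Classes with few nuclei and genes with few UMIs, such as Sele in NS-Sham, limit what these libraries can show.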
